A study of Mus musculus with 20 samples.

Results

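B cell and lymphoid follicle genes were examined in RNA from cecum tissue of 20 C57BL/6 mice. The set is a list of 35 genes given by name, which were found in the count table through their Ensembl identifiers and GENCODE symbols, out of 19887 genes in the table. Of the 35, 33 had enough reads to be tested, among 15348 tested genes. All mice were placed on the Total Western Diet (TWD), a rodent diet built on American survey intakes, after weaning, at 3 to 4 weeks of age, and ate it for 6 weeks. For 3 further weeks after that, 5 mice stayed on the TWD with 0% raw potato starch (RPS). The other mice ate the TWD with 2, 5, or 10% RPS (w/w), 5 mice per diet. RPS is a starch that largely escapes digestion before the cecum. The mice were bred in-house, no genotype other than the strain is given, and their sex is not given in the labels. Below, the mice of each diet are numbered 1 to 5 in the order in which they were deposited, and the numbers do not pair mice across diets.

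B cells recognize antigen with a membrane immunoglobulin that signals through the CD79A and CD79B chains, and the signal runs through the kinases BLK and BTK and the adaptor BLNK. In the mouse cecum, B cells gather in follicles of the cecal patch and in isolated lymphoid follicles, which are discrete structures: a piece of tissue may hold a follicle or none. Follicles also hold T cells, dendritic cells, and stromal cells that release the chemokine CXCL13, and the epithelium above them contains M cells, which carry the receptor GP2. Plasma cells, the descendants of B cells that secrete IgA, lie mostly scattered through the mucosa outside the follicles and switch off many genes of the B cell stage.

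Of the members, 8 belong to antigen receptor signaling (Cd79a, Cd79b, Blk, Blnk, Btk, Bank1, Rasgrp3, Swap70), 11 are surface receptors of B cells (Ms4a1, Cr2, Fcer2a, Cd22, Siglecg, Cd72, Cd37, Cd180, Fcrla, Fcmr, Btla), and 9 are transcription factors or their coactivators (Pax5, Ebf1, Pou2af1, Pou2f2, Spib, Bcl6, Ikzf1, Ikzf3, Irf8). The remaining 7 are lymphocyte genes (Ltb, Coro1a, Cd52, Ptprcap, Vpreb3), the M cell gene Gp2, and the vessel gene Madcam1. Labeled as cecum, all samples had the epithelial keratin Krt8 at 2216 to 3637 CPM (the counts of a gene as a share of its library, after TMM scaling) and the smooth muscle myosin Myh11 at 735 to 2905 CPM, so mucosa and muscle wall were both present. Library totals ran from 14967798 to 42687283 counts, and mitochondrial genes took 9.0 to 15.4% of the counts.

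Most members moved together from mouse to mouse, so the bases upstream of their start sites are shown for 5 of them. Given is the 120-base stretch directly before the start of the Ensembl canonical transcript (GENCODE release 39, GRCm39), 5′ to 3′ on the strand of the gene. Cd79a lies at chr7:24596620-24596739 (plus strand), Cd79b at chr11:106205589-106205708 (minus), Cr2 at chr1:194858919-194859038 (minus), Vpreb3 at chr10:75784014-75784133 (plus), and Blnk at chr19:40982979-40983098 (minus). Cd79a and Cd79b are the receptor chains, Cr2 is a surface receptor that followed them closely, Vpreb3 is a relative of the surrogate light chain genes, and Blnk is the member that did not follow the others. Capitals mark a match to a motif that a member or its relatives are known to bind: the octamer ATGCAAAT of POU2F2 and its coactivator POU2AF1 (ATTTGCAT on the other strand), or the PU box GAGGAA of the SPIB family (TTCCTC on the other strand).
Cd79a: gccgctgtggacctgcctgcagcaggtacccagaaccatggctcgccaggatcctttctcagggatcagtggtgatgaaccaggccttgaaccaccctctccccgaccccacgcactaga
Cd79b: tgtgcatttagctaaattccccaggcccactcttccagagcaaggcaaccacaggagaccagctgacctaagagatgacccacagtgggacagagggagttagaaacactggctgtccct
Cr2: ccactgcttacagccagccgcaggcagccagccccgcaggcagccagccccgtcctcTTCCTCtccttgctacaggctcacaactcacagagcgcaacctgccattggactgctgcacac
Vpreb3: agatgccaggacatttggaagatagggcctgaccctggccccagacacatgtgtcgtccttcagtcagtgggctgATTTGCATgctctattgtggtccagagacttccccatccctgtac
Blnk: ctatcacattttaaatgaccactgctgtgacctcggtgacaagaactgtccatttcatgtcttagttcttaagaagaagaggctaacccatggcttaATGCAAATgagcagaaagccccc

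Over the 250 bases before the start, both strands read, the octamer stood in 2 of the 33 tested members (Vpreb3 and Blnk), or 6.06%, against 2% of 15336 promoters of tested genes. The EBF1 motif CCCNNGGG stood in 4 (Bank1, Ms4a1, Spib, Ikzf1), or 12.1%, against 13.7%. The PU box stood in 14, or 42.4%, against 23.5%, and these were Rasgrp3, Swap70, Cr2, Cd22, Siglecg, Cd72, Cd37, Fcrla, Pax5, Pou2f2, Bcl6, Ikzf1, Ikzf3, and Cd52. The only overlap was in Spib, where a pair of EBF1 matches shared bases. In the stretches shown, Cr2 had the PU box from base 63 to base 58 before the start. Vpreb3 had the octamer from base 45 to base 38, and Blnk from base 23 to base 16. The windows of Cd79a and Cd79b held none of the 3 motifs. The matches are letters in a window and were not tested as binding sites.

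The level of the members differed mostly between mice of the same diet. Cd79a, the receptor chain taken here as the guide, had 96.4 CPM in mouse 3 fed with 2% RPS and 1.36 CPM in mouse 2 of the same diet, a 71.1-fold range. Its levels in mice 1 to 5 were 9.11, 56.3, 1.58, 5.14, and 2.47 CPM with 0% RPS, and 1.75, 1.36, 96.4, 11.7, and 2.93 CPM with 2% RPS. With 5% RPS they were 15.5, 2.65, 29.6, 42.9, and 3.02 CPM, and with 10% RPS 49.9, 3.64, 63.6, 56.6, and 61.7 CPM. A single mouse on each of 0 and 2% RPS was high, 3 mice were above 15 CPM with 5% RPS, and 4 of 5 mice were high with 10% RPS, where mouse 2 was low. The diets therefore overlapped, with more high mice at 10% RPS than at 0 or 2% RPS.

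A score over the 33 tested members (the mean of log2 CPM after each gene was centred on its mean over 20 mice) gave each mouse a single value. The score in mice 1 to 5 was -0.36, 1.47, -1.66, -0.84, and -1.71 with 0% RPS and -1.58, -1.91, 2.03, -0.18, and -1.25 with 2% RPS. With 5% RPS it was 0.37, -1.36, 0.97, 1.09, and -1.20, and with 10% RPS 1.64, -1.03, 1.91, 1.73, and 1.87. The means were -0.62 ± 1.30 with 0%, -0.58 ± 1.59 with 2%, -0.03 ± 1.18 with 5%, and 1.22 ± 1.27 with 10% RPS (SD, n = 5). The distance between the highest and the lowest mouse was 3.94 log2 units, a 15.3-fold range, and both of these mice ate 2% RPS. Diet accounted for 27.7% of the variance of the score, and the rest lay between mice on the same diet. The median was 28.0% for single members and 15.3% for all tested genes.

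**Figure D1:**
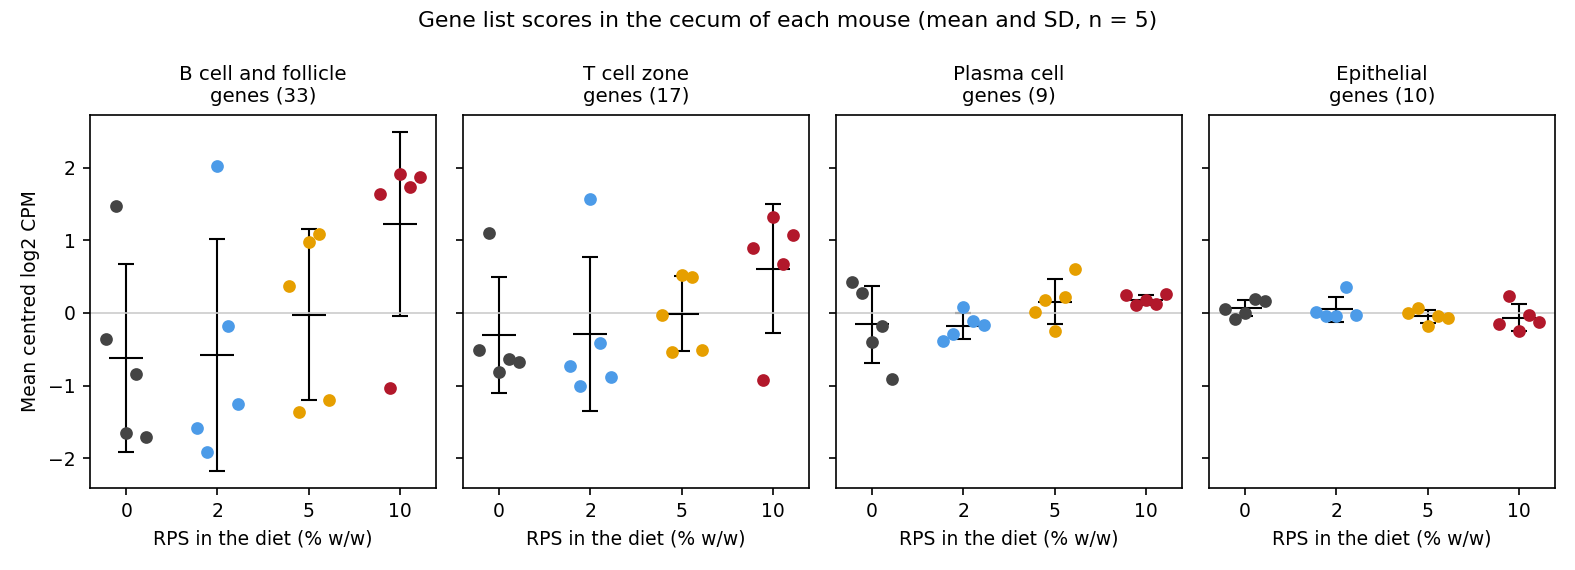
Scores of 4 gene lists (mean centred log2 CPM, vertical axis) in each mouse, by percentage of RPS in the diet (horizontal axis). Points are mice, bars are the mean and SD of 5 mice. For B cell and follicle genes 4 of 5 mice with 10% RPS lay between 1.64 and 1.91 and the fifth at -1.03, while plasma cell and epithelial genes had a narrower spread.

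Members varied more between mice than most genes did. The median SD of log2 CPM over the 20 mice was 1.46 for members and 0.24 for all tested genes, and 25 members had an SD above 1, which 2.76% of tested genes had. The number of members above their own median was 31 of 33 in mouse 2 with 0% RPS and 33 in mouse 3 with 2% RPS. It was 29, 31, and 33 in mice 1, 3, and 4 with 5% RPS, and 32 or 33 in each of the 4 high mice with 10% RPS. In mouse 2 with 10% RPS it was 2. Mouse 4 with 2% RPS (22 members) and mouse 1 with 0% RPS (11 members) lay between, and the other 10 mice had at most 3 members above the median.

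**Figure D2:**
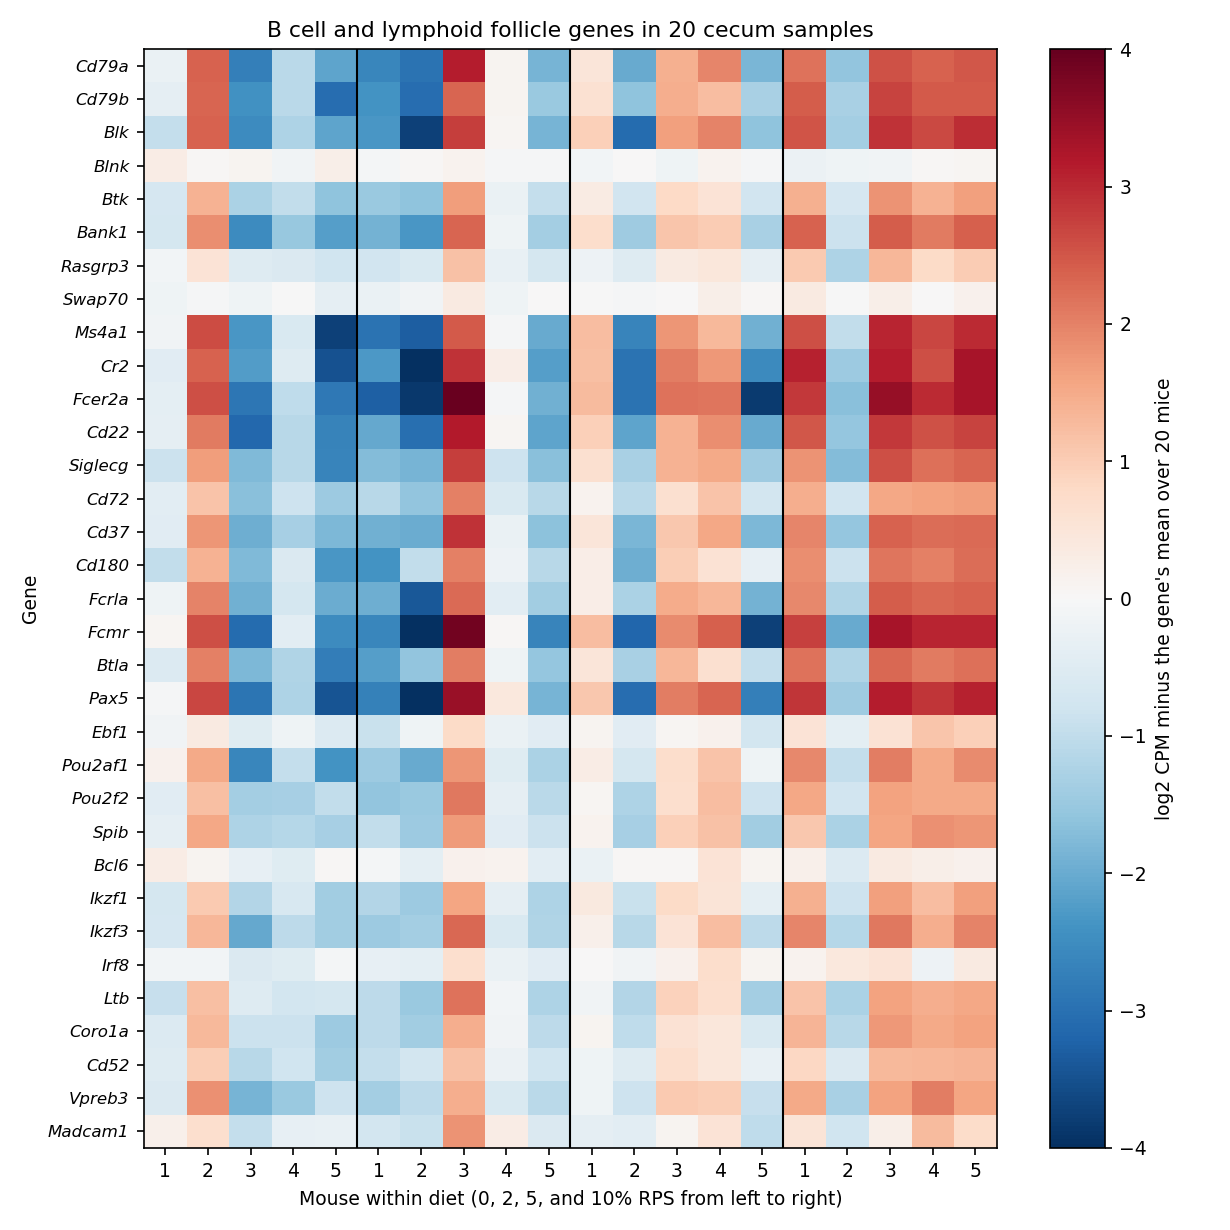
The 33 tested members (rows, in order of their roles) in the 20 mice (columns, 5 per diet). Colors give log2 CPM minus the mean of the gene over all mice, from -4 (blue) to 4 (red). Whole columns are red or blue, as in mouse 3 with 2% RPS and mouse 2 with 10% RPS, while the rows of Blnk, Swap70, Bcl6, and Irf8 are pale throughout.

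To see whether this reached beyond a few genes, each member was set against the mean of the other 32. Across the 20 mice the median Pearson r was 0.98, and 28 of 33 members had an r over 0.9, as a description over mice that share libraries and scaling. The members outside this group were Madcam1 (r = 0.87), Swap70 (0.75), Irf8 and Bcl6 (0.64 each), and Blnk (-0.10). The relation was also present within diets, where r was 0.99 for Cd79a, 0.97 for Ms4a1, and 0.98 for Pax5. The slope, log2 units of the gene per log2 unit of the other members, ran from 1.93 for Fcer2a and 1.89 for Fcmr down to 0.35 for Ebf1, 0.16 for Irf8, 0.10 for Swap70, and -0.01 for Blnk. Among genes with a slope below 1, Coro1a (0.76) and Cd52 (0.60) kept a level of 9.18 and 5.34 CPM or more in the lowest mouse. Not all of them did, since Vpreb3 (0.87) and Ikzf3 (0.98) fell to 0.188 and 0.863 CPM.

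Fold differences between diets were therefore set against a wide spread. A gene was counted as past the threshold at an adjusted p of at most 0.05 and a fold change of at least 1.5 (edgeR, Benjamini-Hochberg over all 15348 genes). With 10% against 0% RPS, 0 of 33 members passed, where 1.04% of all tested genes did. All but Blnk were higher in the fit (32 of 33), with a median log2 fold change of 1.64 against 0.00 over all tested genes. Without the adjustment, 11 members were higher at a p under 0.05, which 9.74% of tested genes were, and 1 (Blnk) was lower. The lowest adjusted p was 0.121, for Swap70. DESeq2 also put 0 members past the threshold, where 2.46% of all genes passed. It had 16 of 35 members at an unadjusted p under 0.05 in either direction (17.9% of all genes) and a lowest adjusted p of 0.067 (Ebf1).

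With 5% against 0% RPS, 0 members passed the threshold (0.195% of tested genes did), 31 were higher in the fit, and the median log2 fold change was 0.40. Only Irf8 was higher at an unadjusted p under 0.05, against 6.74% of tested genes. DESeq2 gave 0 past the threshold, where 241 of 17088 genes passed, and 1 at an unadjusted p under 0.05. With 2% against 0% RPS, 0 members passed, as did 0% of tested genes, and 29 were higher in the fit with a median of 0.30. At an unadjusted p under 0.05 there were 0, against 2.58% of tested genes that were higher. With DESeq2 there was 1, Ptprcap, at 27 counts in all, and 0 passed the threshold, where 5 of 18520 genes did. In the linear trend over the percentage of RPS, 0 members passed an adjusted p of 0.05 (1.11% of tested genes did). At an unadjusted p under 0.05, 19 were higher, against 9.37% of tested genes, and 1 (Blnk) was lower. The median slope was 0.15 log2 units per 1% RPS, and the lowest adjusted p was 0.107 (Ebf1). DESeq2 put 0 past the threshold in the trend as well, with 22 at an unadjusted p under 0.05 in either direction (17.3% of all genes).

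Leaving out single mice moved these counts. Without mouse 2 on 0% RPS, the high mouse of that diet, the median with 10% RPS was 2.70, 31 members had an unadjusted p under 0.05 in either direction (21.4% of tested genes did), and 3 passed the threshold (Btk, Cd52, Vpreb3), as did 2.23% of tested genes. Without mouse 3 on 2% RPS, the median with 2% RPS went to -0.89, and 9 members passed the trend (Cd180, Cd52, Cd72, Ebf1, Ikzf1, Ikzf3, Irf8, Rasgrp3, Swap70), as did 4.37% of tested genes. Without mouse 2 on 10% RPS, the low mouse, 19 members had an unadjusted p under 0.05 with 10% RPS (18.8% of tested genes did) and 0 passed. Since the members share their mice, the count of members does not add independent evidence.

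**Figure D3:**
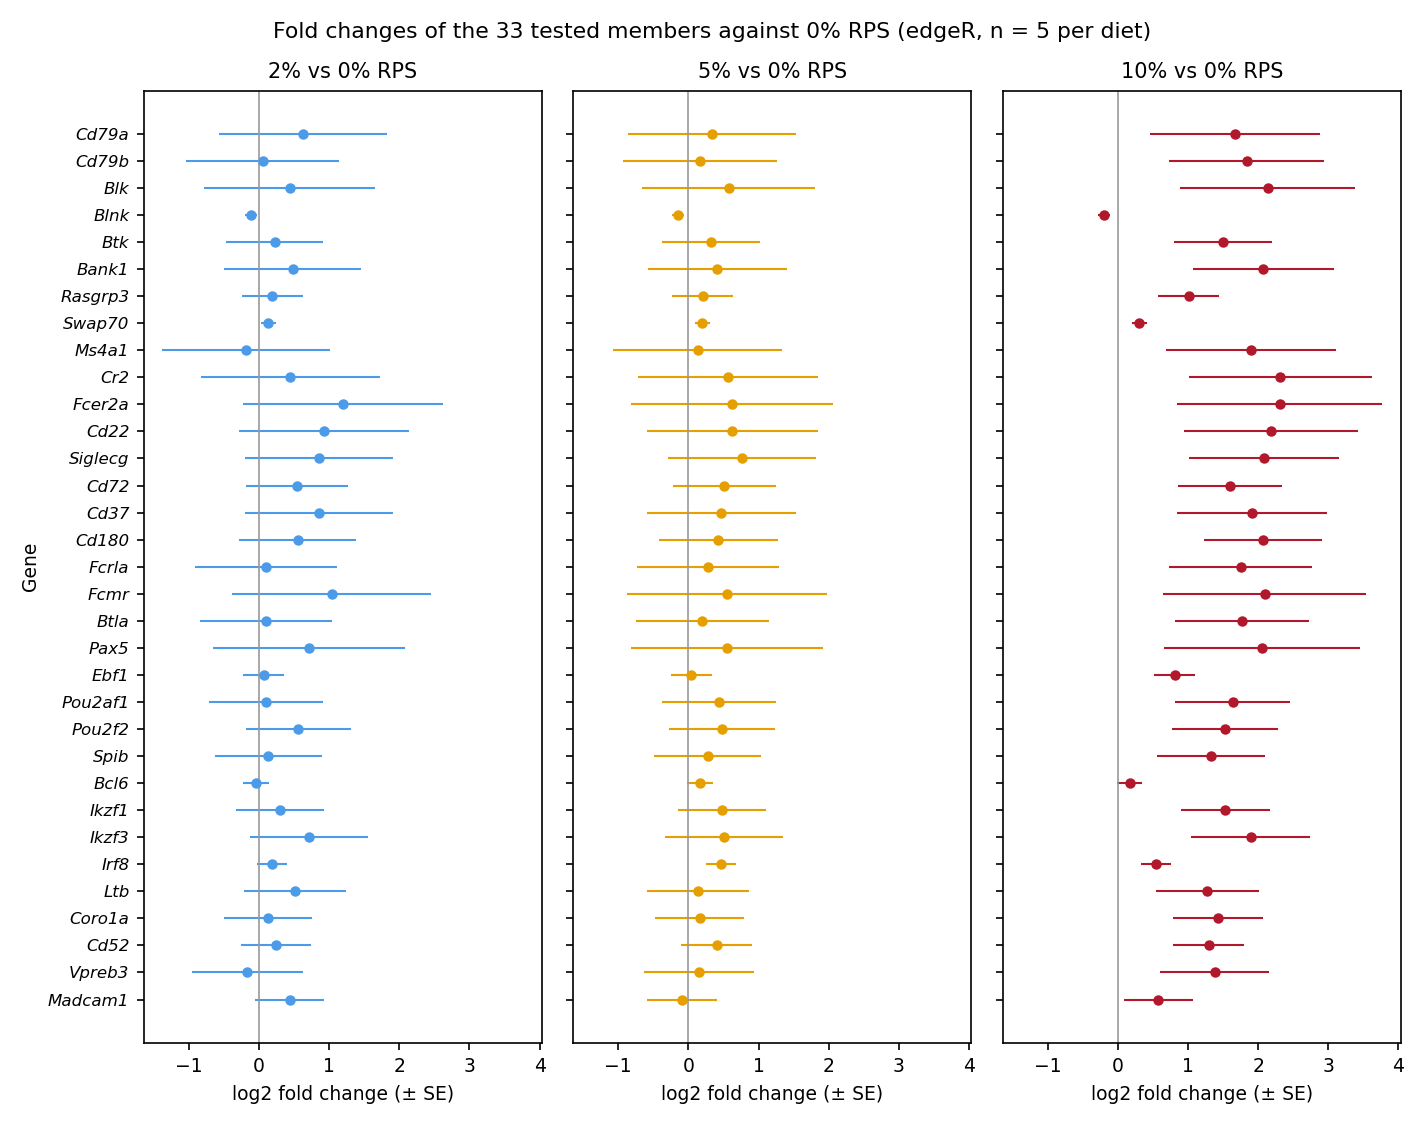
Log2 fold changes of the 33 tested members (horizontal axes, with SE from edgeR) for 2, 5, and 10% against 0% RPS, 5 mice per diet. With 10% RPS the points lie to the right of 0 except for Blnk (-0.19), with SE of up to 1.46, and Swap70 and Blnk have the narrowest bars.

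Among receptor signaling genes, Cd79b, the partner chain of Cd79a, had 4.59, 30.2, 1.05, 2.75, and 0.660 CPM with 0% RPS and 31.9, 2.37, 39.4, 33.1, and 32.7 CPM with 10% RPS. With 10% RPS, 4 mice lay above all mice with 0% RPS, and mouse 2 lay below 3 of them. The log2 fold change was 1.84 ± 1.11 for Cd79b and 1.67 ± 1.22 for Cd79a (SE; adjusted p = 0.371 and 0.474 with edgeR). Relative to Cd79a, Cd79b was not constant: the ratio of CPM had a median of 0.57 and ran from 0.27 to 0.80. The kinase gene Blk ranged from 0.139 to 21.6 CPM, with a log2 fold change of 2.14 ± 1.25 in mice fed with 10% RPS. Btk, the kinase downstream, ranged from 1.25 to 14.0 CPM and had a log2 fold change of 1.5 ± 0.69. Bank1, a scaffold of the same path, gave 2.08 ± 1.0, and Rasgrp3, a Ras activator that other cells also use, 1.01 ± 0.43 from a higher floor of 2.84 CPM.

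Swap70, a signaling protein of activated B cells that is also made by many other cells, had the lowest adjusted p of the members. Its levels were 79.6, 86.0, 77.9, 87.0, and 69.1 CPM with 0% RPS and 114, 87.3, 104, 88.8, and 101 CPM with 10% RPS. Every mouse fed with 10% RPS lay above every mouse fed with 0% RPS, which held for 1 of 33 members and for 1.68% of tested genes, and the gap was narrow (87.0 against 87.3 CPM). With 2% RPS the levels were 74.3 to 114 CPM and with 5% RPS 85.6 to 104 CPM. The log2 fold change with 10% RPS was 0.31 ± 0.11, or 1.24-fold, with an adjusted p of 0.121 (edgeR).

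Blnk, the adaptor that links the receptor to its enzymes in B cells, had 224, 186, 197, 163, and 211 CPM with 0% RPS and 154, 161, 165, 187, and 191 CPM with 10% RPS. Its highest level in any mouse was 1.45 times the lowest, while that of Cd79a was 71.1 times the lowest. The log2 fold change was -0.19 ± 0.09 (adjusted p = 0.235, edgeR). Per kb of exonic length it was the member with the highest mean level (26.5 CPM per kb), above Cd79a (17 CPM per kb), also in mice in which Cd79a was near its lowest. In the mouse with the lowest Cd79a, mouse 2 on 2% RPS, the ratio of Blnk to Cd79a CPM was 139, and in mouse 3 on 2% RPS it was 2.05.

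**Figure D4:**
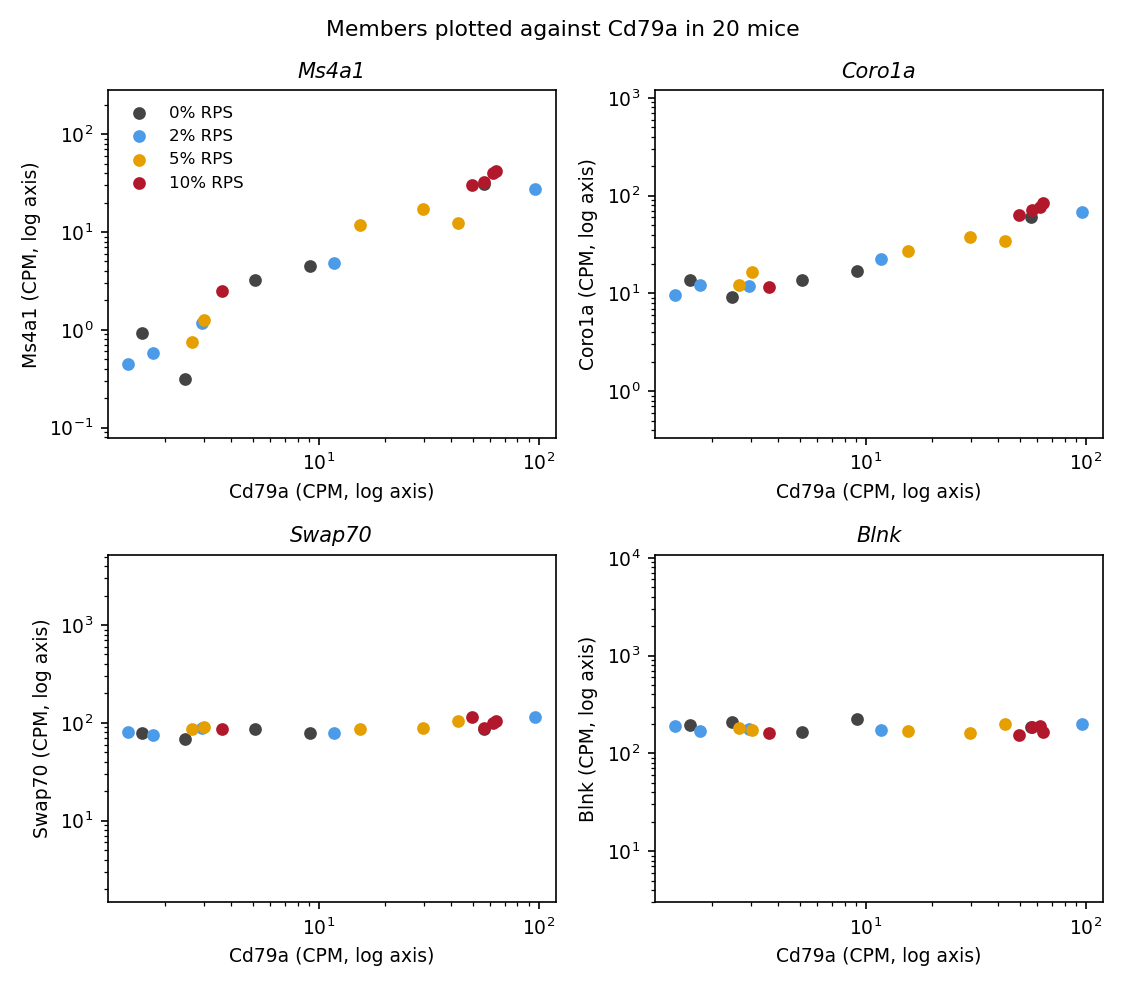
CPM of Ms4a1, Coro1a, Swap70, and Blnk (vertical log axes of equal span) against Cd79a (horizontal log axis) in 20 mice, colored by diet. Ms4a1 climbs from 0.32 to 42.2 CPM along with Cd79a and Coro1a from 9.18 to 83.8 CPM, while Swap70 and Blnk stay nearly level.

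The surface receptors of follicular B cells were among the members with the widest ranges. Ms4a1 (CD20), a membrane protein of mature B cells, had 4.49, 30.9, 0.938, 3.22, and 0.316 CPM with 0% RPS, and 30.4, 2.50, 42.2, 32.3, and 39.7 CPM with 10% RPS. Cr2 (CD21), the complement receptor of B cells and follicular dendritic cells, had 2.64, 18.6, 0.713, 2.48, and 0.258 CPM with 0% RPS, and 30.8, 1.26, 32.4, 21.7, and 36.0 CPM with 10% RPS. Fcer2a (CD23), an IgE receptor of resting follicular B cells, had 2.21, 18.0, 0.338, 1.41, and 0.344 CPM and 21.2, 0.878, 33.8, 23.9, and 29.5 CPM in these diets. In all 3 genes the 10% RPS mice other than mouse 2 were above 4 of the 5 mice fed with 0% RPS, and also above mouse 2 of that diet except for Ms4a1 in mouse 1 (30.4 against 30.9 CPM). The log2 fold changes were 1.90 ± 1.21, 2.32 ± 1.31, and 2.31 ± 1.46, that of Cr2 being the highest among the members.

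Over the 11 surface receptors the log2 fold change with 10% RPS ran from 1.60 (Cd72) to 2.32 (Cr2), with a median of 2.07, and 2 (Cd180 and Cd72) were higher at an unadjusted p under 0.05, where 9.74% of tested genes were. Cd22 and Siglecg, inhibitory lectins of the B cell receptor, gave 2.18 ± 1.24 and 2.08 ± 1.07. Cd72, another inhibitory receptor, gave 1.60 ± 0.74, and Cd37, a tetraspanin, 1.92 ± 1.07. Cd180, a relative of the Toll-like receptors, gave 2.07 ± 0.84 with the lowest adjusted p of this group (0.192, edgeR), and Fcrla, an intracellular Fc receptor-like protein, 1.75 ± 1.02. Fcmr, the IgM receptor, had the widest span of all members, 0.0696 to 31.5 CPM, and gave 2.09 ± 1.44, its lowest value resting on only a few reads. Btla, an inhibitory receptor that T cells also carry, gave 1.77 ± 0.96. With 2% RPS the highest values were those of Fcer2a (1.20 ± 1.43) and Fcmr (1.03 ± 1.42), where mouse 3 alone had 46.2 and 31.5 CPM and the other 4 mice at most 2.83 and 2.15 CPM.

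Of the transcription factors, Pax5, the factor that holds B cell identity, had 3.71, 24.6, 0.450, 1.58, and 0.287 CPM with 0% RPS, and 28.5, 1.39, 34.4, 28.5, and 33 CPM with 10% RPS, a log2 fold change of 2.05 ± 1.39 (adjusted p = 0.436, edgeR). With 2% RPS its levels were 0.535, 0.104, 42.4, 5.21, and 1.0 CPM. High and low mice were the same as for Cd79a. Spib, an ETS factor of B cells, plasmacytoid dendritic cells, and M cells, had 12.1, 45.3, 6.53, 6.88, and 6.14 CPM and 32.3, 6.43, 46.6, 55.3, and 52.0 CPM with 0 and 10% RPS, and 1.33 ± 0.77 as its log2 fold change. Pou2af1 and Pou2f2, the coactivator and the factor that act on octamer sites, gave 1.64 ± 0.82 and 1.53 ± 0.76. The lymphoid factors Ikzf1 and Ikzf3 gave 1.53 ± 0.63 and 1.90 ± 0.85.

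Ebf1, the early B cell factor, which stromal and fat cells also express, moved over a smaller range. It had 7.49, 10.7, 5.89, 7.35, and 5.65 CPM with 0% RPS, and 12.1, 6.30, 12.5, 18.1, and 16.2 CPM with 10% RPS. The log2 fold change was 0.81 ± 0.29 with an adjusted p of 0.138, and the trend was 0.08 ± 0.03 per 1% RPS with an adjusted p of 0.107 (edgeR). Irf8, a factor of B cells and of dendritic cells and macrophages, had 6.38, 6.33, 4.61, 4.87, and 6.54 CPM and 7.63, 9.29, 10.1, 6.03, and 8.82 CPM with 0 and 10% RPS. In Irf8 mouse 2 with 10% RPS was not low but among the highest, unlike in most members, and the log2 fold change was 0.55 ± 0.21. Bcl6, the master factor of germinal center B cells, which other cells of the gut wall also use, ranged from 12.6 to 26.7 CPM and gave 0.17 ± 0.18 (adjusted p = 0.657, edgeR).

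The tested genes of the lymphocyte group followed the other members. Coro1a, a coat protein of actin in white blood cells, had 17, 61.1, 13.7, 13.8, and 9.18 CPM with 0% RPS, and 63.8, 11.7, 83.8, 71.3, and 76.7 CPM with 10% RPS, or 1.43 ± 0.64 in log2. Cd52, a surface glycoprotein of lymphocytes, gave 1.29 ± 0.50, and Ltb, the lymphotoxin chain that lymphocytes use to build and keep follicles, 1.28 ± 0.73. Vpreb3, the relative of the surrogate light chain genes, gave 1.38 ± 0.77 at levels of 0.188 to 3.82 CPM. Ptprcap had 27 counts in all mice together, with 9 mice at 0, and was not tested. In the annotation it overlaps Coro1b on the same strand and Rps6kb2 on the other, and how the counting treated shared reads is not given.

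Gp2, the M cell receptor, had 18 counts in the 20 mice together and at most 3 in any mouse, with 8 mice at 0, so its level in relation to the follicle genes could not be measured at this depth. Madcam1, the vessel address that lets lymphocytes into gut lymphoid tissue, had 6.09, 8.36, 2.70, 4.20, and 4.25 CPM with 0% RPS, and 7.53, 2.97, 6.19, 12.8, and 8.89 CPM with 10% RPS, a log2 fold change of 0.58 ± 0.49 (adjusted p = 0.550, edgeR). Its highest level was in mouse 3 with 2% RPS (18.6 CPM), which was also the mouse with the highest score. A total of 6 tested members overlap a gene on the opposite strand in the annotation (Cd72, Cd37, Cd180, Pax5, Coro1a, Cd52), and whether strand was used in the counting is not given.

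Other genes of the B cell path that are not on the list were taken as a set of 30 for comparison, among them the BAFF receptor Tnfrsf13c, the follicle homing receptor Cxcr5, and enzymes such as Lyn, Syk, and Plcg2. With 10% RPS 0 of the 30 passed the threshold, 28 were higher in the fit with a median log2 fold change of 0.97, and 20 had an unadjusted p under 0.05, all higher (edgeR). With DESeq2, 21 had an unadjusted p under 0.05 and 5 passed (Cd55, Fcgr2b, Fcrl5, Pik3ap1, Prkcb). For these and the lists that follow, the shares over all tested genes with 10% RPS were 9.74% higher at an unadjusted p under 0.05 and 1.04% past the threshold with edgeR, and 17.9% (either direction) and 2.46% with DESeq2. The widest difference with 10% RPS was that of Tnfrsf13c (2.26 ± 1.34). Lyn, a kinase of many blood cells, had the lowest adjusted p (0.0671, edgeR) at 0.44 ± 0.12.

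Germinal center genes (10) gave 0 past the threshold with 10% RPS in edgeR, 5 at an unadjusted p under 0.05, and a median of 0.71, while DESeq2 gave 2 (Gcsam and Mybl1). Gcsam, a signaling adaptor of germinal center B cells, had the widest difference (1.79 ± 0.60, adjusted p = 0.113, edgeR). In the trend 1 of 10, Mybl1, passed (0.11 ± 0.02 per 1% RPS, adjusted p = 0.037, edgeR), and it kept an adjusted p of at most 0.05 in 11 of the 20 fits that left out a mouse. Mybl1, a Myb factor of germinal center B cells, had 2.21, 3.27, 1.54, 2.38, and 0.947 CPM with 0% RPS and 6.48, 3.33, 4.05, 2.31, and 4.76 CPM with 10% RPS. Of the 10% RPS mice, 4 lay above all 0% RPS mice, and the low one was mouse 4. Genes that organize lymphoid tissue (11) had 0 past the threshold with either tool, 5 higher and 1 lower at an unadjusted p under 0.05 with edgeR (7 with DESeq2), and a median of 0.53. Of these, Cxcl13, the chemokine that draws B cells into follicles, had 3.94, 20.9, 2.51, 3.42, and 1.66 CPM with 0% RPS, and 16.7, 4.08, 20.3, 25.8, and 24.1 CPM with 10% RPS. Ccl19, a chemokine of the T cell zone, had the widest difference of this list (2.06 ± 0.98), at levels of 0 to 1.65 CPM. Genes of the epithelium over follicles (8) had 0 past the threshold with either tool, 4 at an unadjusted p under 0.05 with each, and a median of 0.26. Among them Ccl20, the chemokine that this epithelium makes, had the widest difference (1.30 ± 0.61).

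The member score followed these lists across the 20 mice. Pearson r with the member score was 0.99 for the other B cell genes, 0.94 for germinal center genes, 0.96 for lymphoid organizers, 0.88 for the epithelium over follicles, 0.96 for the 17 genes of the T cell zone, and 0.84 for 10 myeloid genes. Within diets it was 0.96 for the T cell zone and 0.95 for the organizers. All these values come from the same libraries and are descriptions. The summed level of the 17 T cell genes was 35.6 to 108 CPM with 0%, 32.1 to 154 CPM with 2%, 36.9 to 75.1 CPM with 5%, and 28.2 to 127 CPM with 10% RPS, and none of the 17 was at 0 in all mice of a diet. With 10% RPS, 0 of the 17 passed with edgeR, 1 had an unadjusted p under 0.05, and DESeq2 gave 1 (Cd28). Cd3e, a chain of the T cell receptor complex, had its highest level, 10.3 CPM, in mouse 3 with 2% RPS and its lowest, 1.29 CPM, in mouse 2 with 10% RPS. Myeloid genes summed to 154 to 322 CPM with 0% RPS and 203 to 354 CPM with 10% RPS, with the macrophage lysozyme Lyz2 the widest of them (1.11 ± 0.42). Of the 10 myeloid genes 0 passed with either tool, with 1 at an unadjusted p under 0.05 in edgeR and 3 in DESeq2.

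Plasma cell genes behaved otherwise. Their score had an r of 0.48 with the member score (0.35 within diets), and the share of immunoglobulin genes in the counts, which ran from 0.042 to 0.281%, an r of 0.65 on the log2 scale. Jchain, the joining chain of secreted IgA, had 292, 286, 151, 159, and 51.0 CPM with 0% RPS, and 239, 259, 284, 204, and 288 CPM with 10% RPS. Mouse 2 with 10% RPS, low in nearly all members, was not low here, and the highest Jchain level was in mouse 5 with 5% RPS (529 CPM), whose Cd79a was 3.02 CPM. Igha, the IgA heavy chain, showed the same in that mouse (1383 CPM, the highest of all). Of the 9 tested plasma cell genes 0 passed the threshold with 10% RPS with either tool, and 2 had an unadjusted p under 0.05 with each, Irf4 higher and Sdc1 lower in edgeR. The widest difference was that of Irf4 (1.38 ± 0.53), a factor that germinal center B cells and T cells use as well. Sdc1, which epithelial cells also express, fell short of the fold threshold at -0.55 ± 0.13 with an adjusted p of 0.038 (edgeR).

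Markers of the other tissue layers were set beside the members for the same mice. Epithelial genes summed to 37227 to 44731 CPM with 0% and 26528 to 42455 CPM with 10% RPS, and their score had an r of -0.52 with the member score. Smooth muscle genes, with 2441 to 5668 CPM and 3993 to 6694 CPM in these diets, had an r of 0.16. For adipocyte genes (95.7 to 298 CPM and 35.2 to 248 CPM) r was -0.26, and the widest difference with 10% RPS was that of Cidec (-0.97 ± 0.29), with 0 of 4 past the threshold in edgeR and 1 (Cidec) in DESeq2. The score had an r of 0.13 with the mitochondrial share and -0.24 with the log2 of total counts. Past the threshold with 10% RPS were the smooth muscle actin Actg2 (1.28 ± 0.30, adjusted p = 0.036) and the chloride exchanger Slc26a3 (0.61 ± 0.16, adjusted p = 0.049, edgeR). DESeq2 put Actg2, Slc26a3, and a further smooth muscle gene, Cnn1, past it (0.86 ± 0.27 and adjusted p = 0.0906 with edgeR). Slc26a3 was the only 1 of 10 epithelial genes that was higher in the fit. Without 1 mouse at a time, Actg2 kept an adjusted p of at most 0.05 in 13 of 20 fits and Slc26a3 in 7. In whole tissue, more cells of a type and more RNA per cell cannot be told apart, and the part of tissue sampling in the member levels was not tested.

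To compare diets at equal lymphoid tissue content, the T cell zone score, which holds no member, was added to the model. The median log2 fold change of members with 10% RPS was then 0.52 in place of 1.64, and 0 of 33 passed the threshold (0.867% of tested genes did). Of the members, 30 were higher in the fit and 9 had an unadjusted p under 0.05 in that direction (9.64% of tested genes did), with 1 (Blnk) in the other. Except in Blnk, the SE were smaller as well, and Cd52 went from 1.29 ± 0.50 to 0.58 ± 0.16, with an adjusted p of 0.067 (edgeR), the lowest of the list. Bank1 went from 2.08 ± 1.0 to 0.98 ± 0.30, Ikzf1 from 1.53 ± 0.63 to 0.52 ± 0.15, and Cd180 from 2.07 ± 0.84 to 0.96 ± 0.35. The guide gene Cd79a went from 1.67 ± 1.22 to 0.23 ± 0.45, Ltb to 0.01 ± 0.21, and Fcmr to 0.10 ± 0.71. Bcl6 (-0.08 ± 0.17) and Madcam1 (-0.195 ± 0.27) had the opposite sign to the fit without it, and Blnk (-0.22 ± 0.10) stayed near its value.

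With the same covariate the median was 0.27 with 5% and 0.06 with 2% RPS. In the trend, 0 passed (0.43% of tested genes did), and the lowest adjusted p was 0.063 (Ikzf1, edgeR). At an unadjusted p under 0.05, 11 members were higher (9.41% of tested genes were) and 1 (Blnk) was lower. The covariate is not free of B cells, since Ccr7 and Cd2 are expressed by B cells too, and it differed between diets itself, with means of -0.31 ± 0.80 with 0% and 0.61 ± 0.89 with 10% RPS (SD, n = 5).

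**Figure D5:**
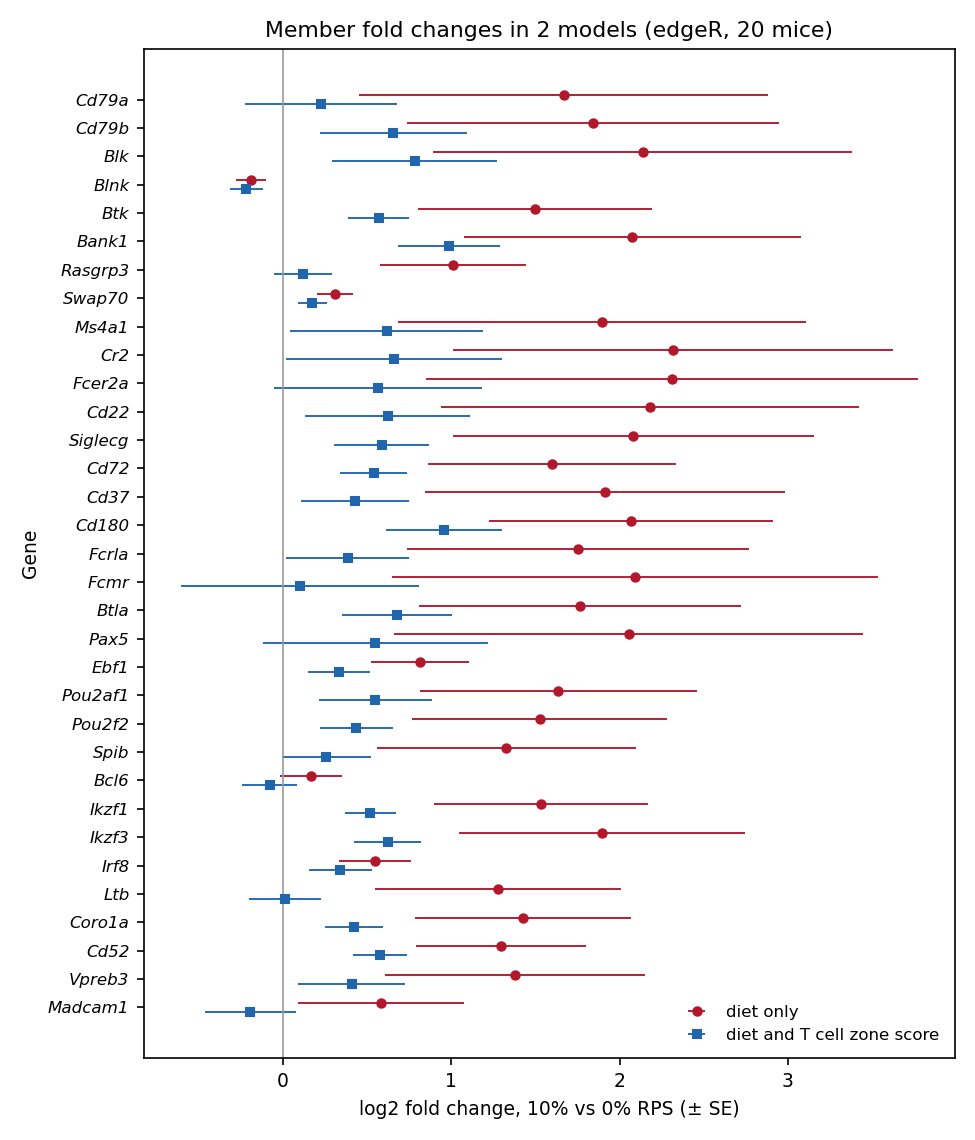
Log2 fold changes with SE (horizontal axis) of the 33 tested members for 10 against 0% RPS, with diet alone (red circles) and with the T cell zone score as a covariate (blue squares), from edgeR fits of 20 mice. With the covariate most points move toward 0 and their bars narrow, the median falling from 1.64 to 0.52, while Blnk stays at about its value (-0.19 and -0.22).

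Outside the members and the immunoglobulin genes, the 10 genes with the highest r to the member score over the 20 mice included H2-DMb2 (0.99), Il21r (0.99), Fcrl1 (0.99), Chst3, H2-Ob, H2-Eb2, Haao, and Arhgap45 (0.99 each). H2-DMb2, H2-Ob, and H2-Eb2 belong to the class II antigen presentation system, and Il21r is the receptor of a cytokine of follicular T cells. The log2 fold changes of these 8 genes with 10% RPS ran from 1.17 (Arhgap45) to 2.20 (Chst3), with adjusted p from 0.263 to 0.344 (edgeR), in the range of the members.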

How the data were processed

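The deposited cecum data cover 20 mice, 5 per diet, from stranded poly(A) libraries sequenced as single-end reads. A figure caption of the paper gives more mice per group for its RNA sequencing. The authors removed bases below Q30 and mapped the reads in CLC Genomics Workbench to GRCm39. The deposited values are raw counts per gene, and 0 columns were left unmapped to a sample. The annotation release, the treatment of multi-mapped reads, and the use of strand are not given in the sources used here. Members and comparison lists were chosen with earlier results of these data known, and the motifs after the data were seen. Symbols, positions, and promoter bases came from GENCODE M39 on GRCm39 (19827 identifiers found, 60 not found). Genes were filtered with filterByExpr (minimum count 10, minimum total 15), scaled by TMM, and tested with the robust quasi-likelihood test of edgeR (4.0.16) in R (4.3.3) on all 4 diets, with Benjamini-Hochberg adjustment over 15348 genes. The linear trend was fitted on the percentage of RPS. DESeq2 (1.42.0) was an alternative. CPM were TMM-scaled, and log2 CPM used a prior count of 2. Library totals were 14967798 to 42687283, so 3 counts equal 0.070 to 0.190 CPM. Named were all 35 members, the genes of each comparison list that were called or had the widest difference with 10% RPS, and the 10 genes most like the member score, of which some items are not reported here. Lyn, Cd3e, Cxcl13, Jchain, Igha, Sdc1, Krt8, Myh11, and the genes called by DESeq2 alone were chosen after their values were seen. The fitting script was tested on simulated counts. Also tried were other scaling, filters, prior counts, a median score, fits of only the diets compared, dose ranks, immunoglobulin genes left out, a T cell zone covariate, and leaving out each mouse.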

Additional observations from a re-analysis of the deposited data

Results flagged for a closer look

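For the member score and each tested member, the mouse farthest from its diet was compared with the spread of that diet, as the gap between it and the nearest mouse divided by the whole range of the 5 mice (log2 CPM). In 36 of 136 such groups the gap was wider than Dixon's limit, which chance passes in about 1 in 20 groups. The members move together, so these groups do not count separately.

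Mouse 2 with 10% RPS was the lowest mouse in 29 of them. The gap took 0.91 of the range of the score. Among single genes the share was Cd79a 0.91, Cd79b 0.92, Blk 0.90, Btk 0.83, Bank1 0.90, Rasgrp3 0.78, Ms4a1 0.88, Cr2 0.85, Fcer2a 0.87, and Cd22 0.92. For further surface receptors and factors it was Siglecg 0.82, Cd72 0.91, Cd37 0.90, Cd180 0.88, Fcrla 0.86, Fcmr 0.89, Btla 0.93, Pax5 0.94, and Pou2af1 0.82. For the remaining genes it was Pou2f2 0.95, Spib 0.75, Bcl6 0.79, Ikzf1 0.83, Ikzf3 0.80, Ltb 0.84, Coro1a 0.86, Cd52 0.73, and Vpreb3 0.84.

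Mouse 3 with 2% RPS was the highest mouse for 6 genes, with shares of Rasgrp3 0.76, Siglecg 0.77, Cd72 0.73, Ikzf3 0.78, Irf8 0.81, and Vpreb3 0.73. Mouse 2 with 0% RPS was the highest for Ltb, with a share of 0.81. The cause of these distances was not tested.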

How the results depend on the processing

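With 12 alternatives other than leaving out a mouse, 71 values of member counts, medians, and scores were classed as unchanged. For counts this meant the same number of members called. For medians and scores it meant a move smaller than the pooled SD of the score within diets (1.34), and their direction was not checked. Of single members with 10% RPS, 254 values kept their direction and call. With the T cell zone score as a covariate, the sign of Bcl6 (-0.0796) and Madcam1 (-0.195) turned, and the median member log2 fold change with 10% RPS was 0.52 in place of 1.64. DESeq2 called 368 genes with 10%, 241 with 5%, and 5 with 2% RPS, against 160, 30, and 0 with edgeR. For members the count was 0 with both, whereas the paper listed the member Irf8 among its differentially expressed cecum genes with 10% RPS.

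When each of 20 mice was left out, the members past the threshold ranged from 0 to 3 with 10% RPS and from 0 to 9 in the trend, and were 0 with 5 and 2% RPS. The median log2 fold change ranged from 1.38 to 2.70 with 10%, from 0.06 to 1.47 with 5%, and from -0.89 to 1.35 with 2% RPS. The difference in score ranged from 1.59 to 2.41 with 10%, from 0.31 to 1.12 with 5%, and from -0.61 to 0.57 with 2% RPS, against a pooled SD within diets of 1.34. The highest count with 10% RPS came without mouse 2 on 0% RPS, and the highest in the trend without mouse 3 on 2% RPS. No paired analysis was possible because no mouse number is shared by different diets. Ptprcap and Gp2 had too few counts to be tested.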
